A study of Mus musculus with 24 samples.

Results

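Genes whose annotated span exceeded 200 kb were followed in the medial frontal cortex of mice that carried a conditional Dnmt3l knock-in together with Emx1-cre. The span of a gene was the distance from its first to its last annotated base in the mRNA table, introns included. Of the 36096 genes in that table, 1010 spanned more than 200 kb. Members were the 942 of them with at least 0.5 FPKM (fragments scaled by transcript length and library size) in at least 3 of 12 libraries, and the other 68 stayed under that level. The 942 were set against 7392 expressed genes of 20 to 200 kb and 7452 expressed genes of 20 kb or less, which together made the 15786 genes tested. The choice used span and a minimum level, not the difference between genotypes, and 906 members reached 0.5 FPKM in all 12 libraries. One member reached the minimum through Dnmt3l libraries alone and 1 through control libraries alone.

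The tested animals had the genotype Dnmt3l;Emx1-cre and came from crossing conditional Dnmt3l knock-in mice to Emx1-cre mice. Controls had the genotype Emx1-cre, so the Cre transgene was common to both. All were C57BL/6J mice at postnatal day 28, and each genotype was represented by 3 males and 3 females. Libraries are written DM and DF for Dnmt3l males and females and CM and CF for control males and females, each with its replicate number. The labels do not say that the 3 samples of a group came from separate animals, so each p-value here reflects variation among the libraries at hand, part of which may be technical. Emx1-cre acts in the progenitors of the dorsal forebrain, and its recombination reaches excitatory neurons and the glia of that lineage, whereas interneurons, microglia and vessels arise elsewhere. Dnmt3l is a catalytically inactive relative of the DNA methyltransferases that binds Dnmt3a and is normally silent in adult brain.

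Very long genes are typical of the nervous system. Most of their length is intron, and RNA polymerase needs hours to cross the longest of them, which makes their transcripts sensitive to topoisomerases, elongation factors and RNA processing. Many encode synaptic adhesion molecules, receptors, channels and scaffolds. Members had a median span of 327 kb, with 218 over 500 kb, 60 over 1000 kb and the longest at 4435 kb. They were also longer as transcripts. The median exonic length, taken per gene as the FPKM-weighted transcript length, was 3708 nt in members, against 2842 nt in genes of 20 to 200 kb and 1582 nt in genes of 20 kb or less. Their median level of 17.8 FPKM stood above the 11.7 FPKM and 6.45 FPKM of these shorter classes.

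The table of spans has a weakness at a few loci. A RefSeq gene of the same symbol existed for 931 members, and its span was also over 200 kb for 900 of them and 200 kb or less for 31. Fgfr2, for example, spans 2961 kb in the deposited table and 104 kb in RefSeq, and Galnt2l, the longest entry, had no RefSeq gene to compare with. A further 271 members overlapped another tested gene, 181 of them on the same strand, and the sources used here do not give whether strand entered the authors' counting. The 671 members without any overlap gave 257 rises and 121 falls with a median log2 change of 0.14, close to the values for all members below.

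Start regions of 6 members are shown because these genes carry the 2 opposite directions described below over very different starts. Each is 300 bases from RefSeq on GRCm38.p6, from 250 bases before to 50 bases after the annotated start, written 5′ to 3′ on the gene's strand, with every CpG dinucleotide (CG, which reads the same on both strands) in capitals. Nrg3, Cntnap2 and Dmd rose, and Macrod2, Lmo3 and Rbfox1 fell. They were picked after their values were known, to show a CpG-dense and a CpG-poor start in each direction.
Nrg3, chr14:39473039-39473338, minus strand, 36 CpG: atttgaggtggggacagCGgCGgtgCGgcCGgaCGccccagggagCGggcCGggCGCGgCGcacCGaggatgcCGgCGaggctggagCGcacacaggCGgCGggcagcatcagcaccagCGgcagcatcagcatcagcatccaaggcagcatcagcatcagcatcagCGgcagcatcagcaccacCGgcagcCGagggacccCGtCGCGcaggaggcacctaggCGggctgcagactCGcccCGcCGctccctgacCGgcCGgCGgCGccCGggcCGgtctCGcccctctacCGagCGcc
Cntnap2, chr6:45059811-45060110, plus strand, 14 CpG: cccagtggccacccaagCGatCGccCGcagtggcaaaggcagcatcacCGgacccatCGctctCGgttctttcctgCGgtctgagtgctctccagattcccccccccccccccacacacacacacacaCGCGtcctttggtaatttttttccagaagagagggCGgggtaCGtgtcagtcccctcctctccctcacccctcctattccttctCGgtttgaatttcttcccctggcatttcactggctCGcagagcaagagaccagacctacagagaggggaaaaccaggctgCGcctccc
Dmd, chrX:82948620-82948919, plus strand, 2 CpG: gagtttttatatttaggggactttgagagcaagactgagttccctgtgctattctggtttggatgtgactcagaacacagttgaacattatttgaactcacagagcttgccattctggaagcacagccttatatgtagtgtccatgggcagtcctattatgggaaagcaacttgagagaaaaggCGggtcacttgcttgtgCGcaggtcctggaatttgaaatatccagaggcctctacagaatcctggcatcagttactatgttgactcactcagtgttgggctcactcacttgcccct
Macrod2, chr2:140395180-140395479, plus strand, 33 CpG: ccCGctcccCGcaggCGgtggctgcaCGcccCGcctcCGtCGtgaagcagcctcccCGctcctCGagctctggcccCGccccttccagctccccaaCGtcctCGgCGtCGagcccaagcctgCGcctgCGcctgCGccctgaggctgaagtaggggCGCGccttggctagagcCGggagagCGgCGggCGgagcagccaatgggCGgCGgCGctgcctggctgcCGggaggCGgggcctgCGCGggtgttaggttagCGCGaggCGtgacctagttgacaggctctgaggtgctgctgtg
Lmo3, chr6:138581919-138582218, minus strand, 7 CpG: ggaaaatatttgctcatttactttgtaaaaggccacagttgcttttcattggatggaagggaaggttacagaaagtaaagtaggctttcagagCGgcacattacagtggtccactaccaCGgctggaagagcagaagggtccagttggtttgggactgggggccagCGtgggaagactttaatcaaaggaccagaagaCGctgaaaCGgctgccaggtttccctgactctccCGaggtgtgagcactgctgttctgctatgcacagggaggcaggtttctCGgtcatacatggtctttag
Rbfox1, chr16:5884543-5884842, plus strand, 3 CpG: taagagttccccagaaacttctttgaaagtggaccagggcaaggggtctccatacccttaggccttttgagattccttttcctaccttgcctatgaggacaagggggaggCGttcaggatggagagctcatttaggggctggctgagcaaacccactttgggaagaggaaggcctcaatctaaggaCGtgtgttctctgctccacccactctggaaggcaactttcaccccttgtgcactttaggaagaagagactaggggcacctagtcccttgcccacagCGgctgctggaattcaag
A CG was present in 94.6% of the 32851 start regions of this length in the table. The table held a start for 702 of 942 members, 74.5%, which is too few to compare CpG content between members that rose and members that fell, and no such comparison was made.

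Before the long genes, 3 facts of the libraries bear on every result. Dnmt3l itself lay between 20.7 and 45.8 CPM (counts scaled to a common library size by TMM) in the 6 Dnmt3l libraries, with the highest level in DF1, against 0 to 0.102 CPM in controls. DF1, the first Dnmt3l female library, nevertheless stood apart from the other 5 and near the controls for most genes. CM3, CF1 and CF2 held liver transcripts, with 86.2 to 103 CPM over 15 liver genes, against 0.893 to 2.63 CPM in the 6 Dnmt3l libraries and 1.11 to 1.59 CPM in the other 3 controls. These 15 leave out Ttr and Trf from a list of 17. Over all 17 the 3 controls did not stand apart, with 324 to 505 CPM, against 172 to 725 CPM in Dnmt3l libraries and 327 to 566 CPM in the other 3 controls. Depth was 22144970 to 26842726 counts in Dnmt3l libraries and 27074837 to 32100277 in controls, and the median member had 1371 to 1961 counts per library.

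Long genes rose more often than they fell in Dnmt3l cortex. Averaged over sexes, 358 of 942 members were higher and 171 were lower in Dnmt3l than in control libraries at an adjusted p below 0.05 (edgeR quasi-likelihood test, Benjamini-Hochberg over 15786 genes), and 413 were not called. Among all genes tested, 25.2% rose and 26.4% fell, so the members' 38% of rises was above that background and their 18.2% of falls below it. Their median log2 change was 0.14, against 0.02 in all genes, 0.02 in genes of 20 to 200 kb and −0.01 in genes of 20 kb or less. With scaling by library totals alone, the split was 251 rises against 227 falls in members, where 18% of all genes rose and 32.7% fell, and the median of all genes moved to −0.076. The median of members lay above that of all genes by 0.127 under this scaling and under the main one. A change of scaling moves all genes nearly alike, so these 2 fits cannot test that gap. The gap was 0.148 with limma on log2(FPKM + 0.1) and 0.116 with limma on log2(FPKM + 1). Without the 3 controls with liver transcripts it was 0.096.

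The 3 controls with liver transcripts and DF1 each weighed on the counts. Without those 3 controls 136 members rose (14.4%) and 93 fell (9.87%), where 12.2% and 15.5% of all genes did. With DF1 left out as well, 361 rose (38.3%) and 209 fell (22.2%), where 25.1% and 28.6% of all genes did.

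The changes were small. The median absolute log2 change was 0.26 in members, against 0.39 in genes of 20 kb or less and 0.33 in all genes. Only 50 members rose and 48 fell by at least 1.5 times among those called, where 7.77% and 8.79% of all genes did so. Past 2 times, 4 members rose (Glis1, Gm37388, Kcnq1 and Col24a1) and 3 fell (Lrmda, Fhit and Lmo3), with no share of all genes given here. Of these 7 only Col24a1 and Lmo3 averaged 5 CPM or more. In 87 members all 6 Dnmt3l libraries lay above all 6 controls, and in 41 all 6 lay below, against 5.47% and 6.83% of all genes.

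Members that rose had longer transcripts than members that fell, without a test of the difference. The 358 that rose had a median span of 352 kb, a median exonic length of 4381 nt and a median level of 20.8 FPKM. The 171 that fell had 313 kb, 3258 nt and 23.8 FPKM, and the 413 not called had 321 kb, 3515 nt and 14.4 FPKM. Each of the 3 sets had a median of 7 annotated transcripts per gene.

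Library by library, the shift was present in 5 of the 6 Dnmt3l samples. For each gene the log2 level was taken relative to its mean over the 6 controls, and the median of members was 0.137, 0.163 and 0.141 in DM1 to DM3 and 0.00848, 0.152 and 0.141 in DF1 to DF3. The controls ran from −0.023 in CM2 to 0.0286 in CF3, so DF1 fell inside the control range and the other 5 Dnmt3l libraries lay above it. Genes of 20 kb or less went the other way, with medians of −0.054 to −0.0141 in those 5 libraries, −0.000205 in DF1 and −0.0255 to 0.00999 in controls. The difference between long and short genes was 0.155 to 0.206 in the 5 libraries, 0.00869 in DF1 and −0.0306 to 0.0541 in controls. The share of members above their control mean overlapped more, with 61.3% to 63.1% in the 5 libraries, 51.7% in DF1 and 40% to 62.4% in controls.

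**Figure D1:**
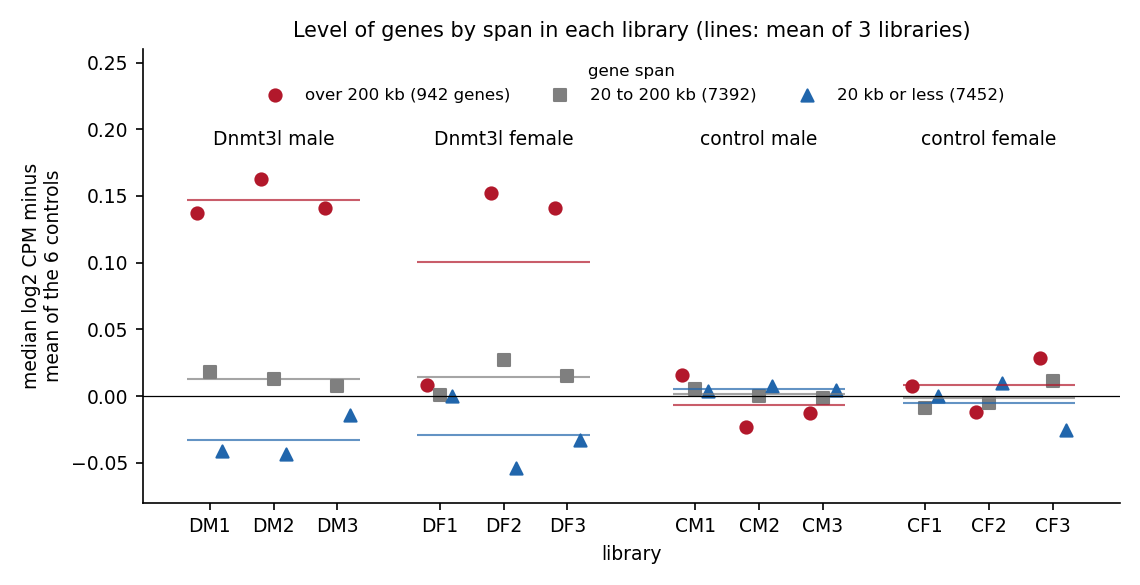
Median log2 CPM relative to the mean of the 6 controls (vertical axis) for genes of 3 span classes in each of the 12 libraries (horizontal axis), Dnmt3l libraries on the left and controls on the right, with a line at the mean of each group of 3. Long genes lie between 0.137 and 0.163 in 5 Dnmt3l libraries and at 0.00848 in DF1, against −0.023 to 0.0286 in controls.

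The same libraries differed in markers of other cells. The summed level of 14 astrocyte markers was 12436 to 15164 CPM in the 5 libraries and 8155 CPM in DF1, against 7441 to 7996 CPM in controls. For 15 microglial markers the sums were 562 to 695 CPM and 349 CPM in DF1, against 318 to 366 CPM, and for 15 endothelial and pericyte markers 966 to 1219 CPM and 559 CPM in DF1, against 523 to 599 CPM. Mature oligodendrocyte markers summed to 6833 to 11634 CPM and 3811 CPM in DF1, against 3983 to 7284 CPM, and oligodendrocyte precursor markers to 1313 to 1414 CPM and 814 CPM in DF1, against 783 to 866 CPM. Of the 13 mature oligodendrocyte markers 6 rose and 2 fell. No marker in these lists was at 0 in all libraries. Excitatory neuron markers, which check the labelled tissue, summed to 6713 to 7984 CPM in Dnmt3l, against 5485 to 6537 CPM in controls, although 7 of these 15 genes fell and 2 rose. Interneuron markers summed to 1262 to 1515 CPM in Dnmt3l, against 1313 to 1419 CPM in controls, although 6 of these 16 genes rose and 8 fell. Immediate early genes, which neuronal activity induces, summed to 497 to 1224 CPM in the 5 libraries and 1990 CPM in DF1, against 1054 to 1744 CPM. Of these 16 genes 13 fell and 0 rose. Among all genes tested, 25.2% rose and 26.4% fell. In bulk tissue, more cells of a type and more RNA per cell cannot be told apart, and the part of these differences in the shift of long genes was not tested.

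Within the members the shift was larger past 500 kb than below it. From 200 to 300 kb, 34.7% of 403 genes rose and 20.1% fell with a median log2 change of 0.11, close to the 31.7%, 20.9% and 0.07 of the 1338 genes of 100 to 200 kb just outside the choice. From 300 to 500 kb, 34% of 321 genes rose and 18.7% fell with a median of 0.13, so the share that rose was no higher than at 200 to 300 kb. Between 500 and 1000 kb, 46.8% of 158 genes rose and 13.9% fell with a median of 0.19. Past 1000 kb, 58.3% of 60 genes rose and 13.3% fell with a median of 0.24. The members nearest to it on the inside were Pcbp3 at just over 200 kb, Plcxd3 at 200.1 kb and Umad1 at 200.2 kb, with log2 changes of −0.81, −0.62 and −0.89. On the outside, Atp9b at 199.9 kb, Clec16a at 199.5 kb and Mical3 at 199.3 kb had 0.45, −0.09 and 0.34.

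**Figure D2:**
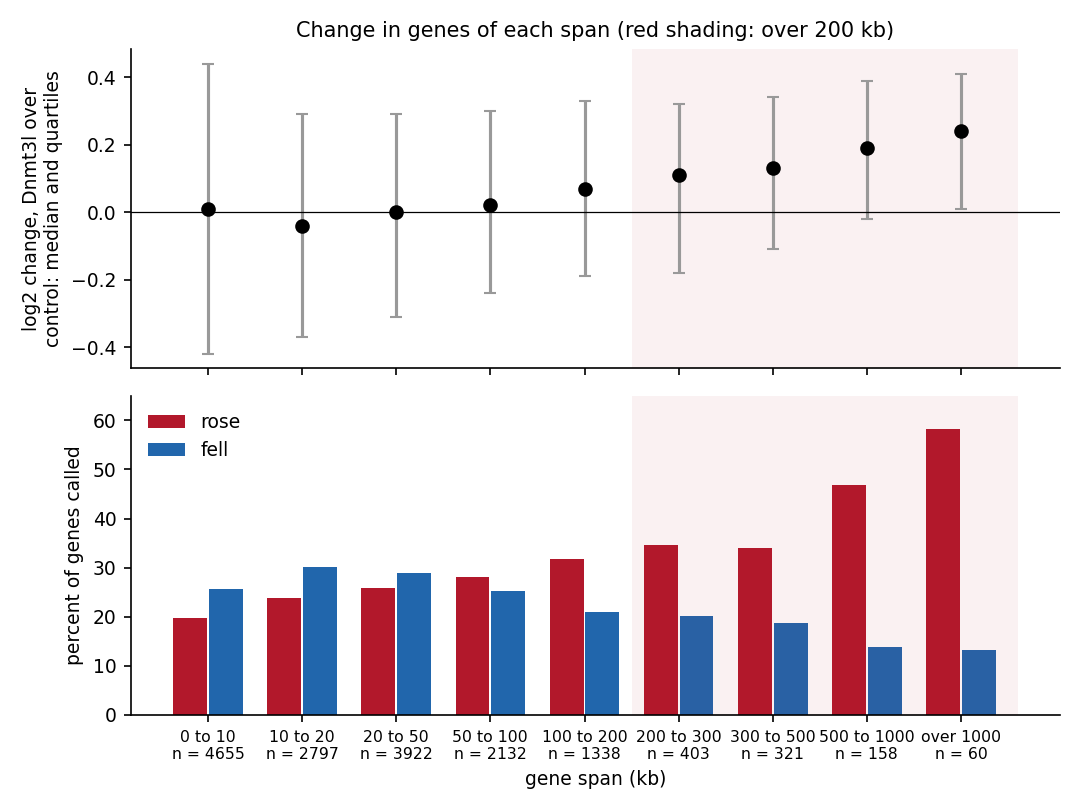
Upper panel: log2 change of Dnmt3l over control, averaged over sexes, as median and quartiles of the genes in each span class (horizontal axis, kb). Lower panel: percent of genes in each class that rose and that fell. The share that rose is 34.7% at 200 to 300 kb, 34% at 300 to 500 kb and 58.3% past 1000 kb. The share that fell is 20.1%, 18.7% and 13.3% in the same classes.

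Long and shorter genes were also compared at like level and like exonic length. Genes were put into 9 strata of mean FPKM, and each class was given the members' weights over these strata. Matched on level, genes of 20 kb or less had 24% rises, 35.1% falls and a weighted median of −0.07, and genes of 20 to 200 kb had 29.1%, 29% and 0.01, against the members' 38%, 18.2% and 0.14. The contrast was thus wider than without matching. Matched instead on 6 strata of exonic length, a choice added after the data were seen, genes of 20 kb or less had 33.1% rises, 26.6% falls and a weighted median of 0.09, against 0.12 in members over the same strata.

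With both matched, over the 909 members in strata that all classes filled, 37.8% of members rose, against 31.5% of genes of 20 to 200 kb and 36.5% of genes of 20 kb or less. In the same strata 18.2% of members fell, against 27.1% and 28.6%, and the weighted medians were 0.12, against 0.03 and 0.05. The shares that rose were thus close between the longest and the shortest class once both were matched, while the shares that fell were still apart. Exonic length went with the change inside the members too. The 13 members under 1 kb of exon had a median of −0.34, the 93 of 1 to 2 kb −0.02, the 202 of 2 to 3 kb 0.05, the 208 of 3 to 4 kb 0.10, the 268 of 4 to 6 kb 0.20 and the 158 over 6 kb 0.23. Short genes with over 6 kb of exon, 93 in number, had a median of 0.34. Span, exonic length and level move together across genes, and what their association with the change comes from was not tested.

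**Figure D3:**
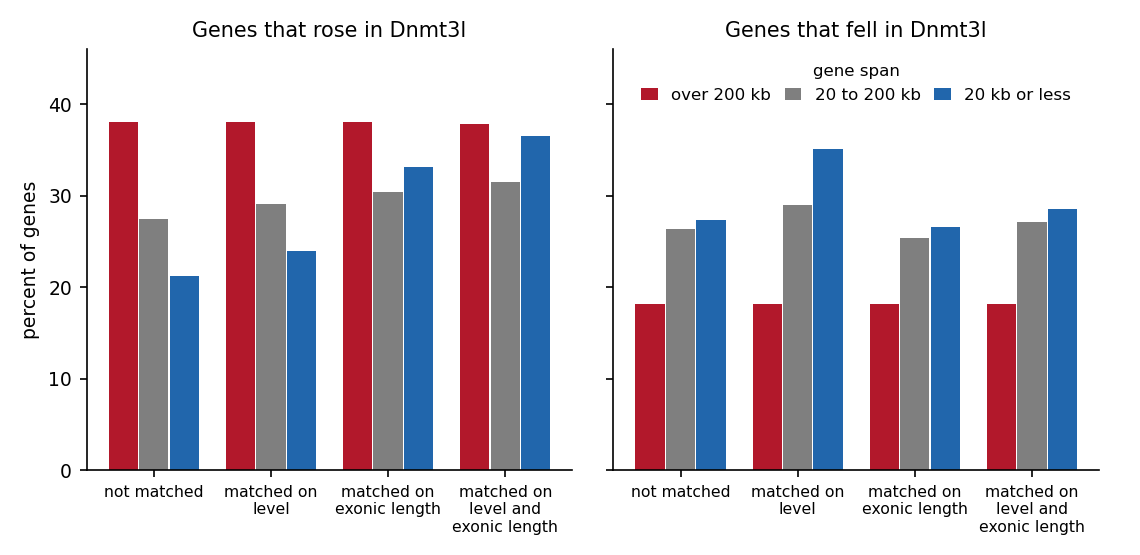
Percent of genes that rose (left) and fell (right) in Dnmt3l for genes over 200 kb, 20 to 200 kb and 20 kb or less, without matching and with shorter genes given the members' weights over strata of level, exonic length or both. Rises of genes of 20 kb or less reach 36.5% with both matched, against 37.8% of members, while falls stay at 28.6%, against 18.2%.

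The 10 longest members gave 7 rises and 1 fall, where 58.3% of the 60 members past 1000 kb rose and 13.3% fell. Of all genes tested, 25.2% rose and 26.4% fell. Ptprd, a receptor phosphatase of the presynaptic membrane on chromosome 4, had 587, 725 and 783 CPM (lowest, median and highest of 6) in Dnmt3l, against 486, 522 and 558 CPM in controls. The groups did not overlap, and the log2 change was 0.44 ± 0.06 (SE, adjusted p = 0.000331, edgeR). Dmd, which encodes dystrophin, had 236, 259 and 285 CPM in Dnmt3l, against 184, 196 and 219 CPM in controls, also without overlap (0.39 ± 0.07, edgeR adjusted p = 0.00071). Cntnap2, a membrane protein that clusters potassium channels at the axon, had 183, 226 and 240 CPM in Dnmt3l, against 164, 170 and 190 CPM in controls. Only DF1, at 183 CPM, reached into the control range of Cntnap2 (0.34 ± 0.07, edgeR adjusted p = 0.00181). Csmd1, a complement regulator with 516, 483 and 470 CPM in Dnmt3l males and 325, 487 and 447 CPM in Dnmt3l females, against 308 to 332 CPM in controls, overlapped through DF1 alone (0.51 ± 0.09).

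Lrp1b, a large lipoprotein receptor, Dlg2, the scaffold PSD-93, and Fgfr2, a fibroblast growth factor receptor, rose by 0.33, 0.27 and 0.46 on the log2 scale, each with overlap of the groups. Fgfr2 shares its deposited span with 13 tested genes on its strand, so its span is uncertain. Macrod2, a hydrolase of ADP-ribose marks, fell to 28.3, 31 and 49.4 CPM in Dnmt3l, against 45.8, 48 and 51.8 CPM in controls (−0.53 ± 0.11, edgeR adjusted p = 0.00194), and the highest Dnmt3l value was again DF1. Lsamp, an adhesion molecule of limbic neurons, had a log2 change of 0.22 ± 0.09 with an edgeR adjusted p of 0.0554 and was not called. Galnt2l had 0.08 ± 0.20.

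The 8 members with the highest level gave 7 rises and 1 fall. App, the amyloid precursor, led at a mean of 788 FPKM, with 1256, 1665 and 1851 CPM in Dnmt3l, against 1231, 1266 and 1326 CPM in controls (0.34 ± 0.06, edgeR adjusted p = 0.000892). Map2, the dendritic microtubule protein, had 2072, 2111 and 2189 CPM in Dnmt3l, against 1789, 1877 and 1999 CPM, with no overlap and a small log2 change of 0.17. The call of Map2 was lost under library totals, under limma on FPKM, without CM2 or CM3 and without the 3 controls with liver transcripts. Syt1, the calcium sensor of transmitter release, Ank2 and Ank3, the ankyrins that tether membrane proteins to spectrin, and Atp2b2, a calcium pump of the plasma membrane, rose by 0.18, 0.41, 0.31 and 0.33. The calls of App and Syt1, like those of Cntnap2 and Lrp1b, were lost under limma on FPKM and without the 3 controls with liver transcripts. Ppp3ca, the catalytic subunit of calcineurin, was the one that fell and is described with the signalling genes.

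**Figure D4:**
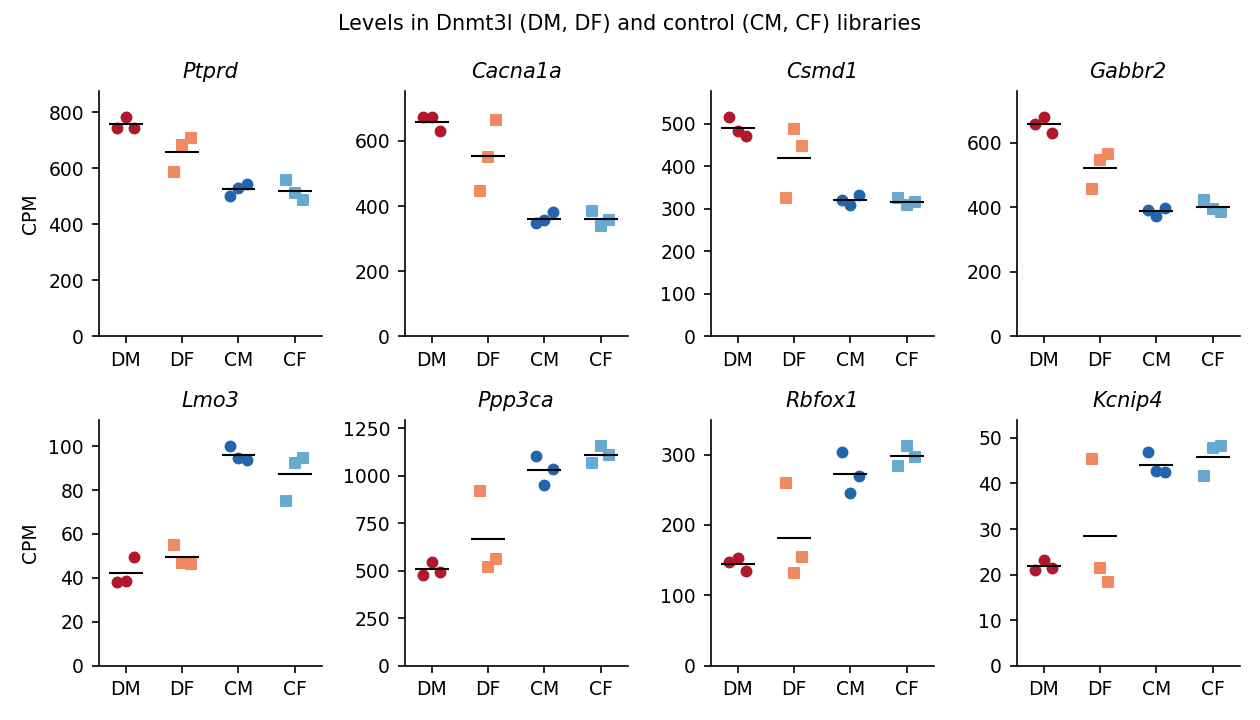
CPM (vertical axes, from 0) of 8 members in Dnmt3l males (DM), Dnmt3l females (DF), control males (CM) and control females (CF), with 3 libraries per group as points and their mean as a line. Upper row: members that rose. Lower row: members that fell, where the DF point nearest the controls in Ppp3ca, Rbfox1 and Kcnip4 is DF1.

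The 10 largest rises among members of 5 CPM or more ran from 0.75 to 1.22 on the log2 scale. Col24a1, a fibrillar collagen, had 19.9, 28.2 and 22.9 CPM in Dnmt3l males and 13.5, 11.6 and 16.7 CPM in Dnmt3l females, against 5.37 to 10.5 CPM in controls. Its log2 change of 1.22 ± 0.16 (edgeR adjusted p = 0.00025) was the only rise past 2 times at this level. Abcc4, an exporter of cyclic nucleotides and prostaglandins, and Gpc6, an astrocyte-secreted glypican that promotes glutamate synapses, followed with 0.91 ± 0.11 and 0.84 ± 0.09, both without overlap of the groups. Myo18b, Itpr2, Megf11, Mecom, Col4a5, Fstl4 and Agmo rose by 0.75 to 0.80. Itpr2 is the calcium release channel of astrocytes, and its 57.2 CPM in DF1 lay within the 51.2 to 62.5 CPM of controls, while the highest Dnmt3l value was 124 CPM.

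The 10 largest falls at this level ran from −1.01 to −0.82. Lmo3, a transcriptional cofactor, had 38.3, 38.5 and 49.6 CPM in Dnmt3l males and 54.8, 46.9 and 46.2 CPM in Dnmt3l females, against 75 to 100 CPM in controls. The groups were fully separate, and the log2 change was −1.01 ± 0.09 (edgeR adjusted p = 6.85e-05), the smallest among the named genes. Sh3gl2, the endocytic protein endophilin A1, fell to 80.7, 89.3 and 190 CPM, against 195, 198 and 206 CPM (−0.96 ± 0.15). Its RefSeq span is 184 kb. Pak3, a kinase of dendritic spines, Reps2, an endocytic adaptor, Stxbp6, a binder of SNARE proteins, and Umad1 fell by 0.92, 0.87, 0.84 and 0.89. In each of these 4 the highest Dnmt3l value, within the control range, was that of DF1.

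The lists below are described beside the 25.2% of rises and 26.4% of falls of all genes and the 38% and 18.2% of all members, and none was tested against them. Synaptic adhesion molecules, which join the pre- and postsynaptic membranes, had many rises and 1 fall. Of 49 members on the list, 37 rose and 1 fell, with a median log2 change of 0.38. The 30 shorter genes of the list gave 26 rises and 0 falls with a median of 0.36, so rises outnumbered falls in its long and its shorter genes alike. Ptprm, a homophilic receptor phosphatase, had 73.4, 103 and 122 CPM in Dnmt3l, against 63.4, 65.7 and 67.2 CPM in controls (0.61 ± 0.07, edgeR adjusted p = 0.000176). Sdk2, a sidekick protein of layer-specific synapses in the retina, had 115, 127 and 161 CPM in Dnmt3l, against 73.4, 80.7 and 102 CPM (0.66 ± 0.08). Cntn3, a contactin, rose by 0.57 ± 0.08, and in all 3 genes the groups were separate. Magi3, a scaffold rather than an adhesion molecule itself, was the one that fell (−0.24 ± 0.09, edgeR adjusted p = 0.0377), with 71.4 to 74 CPM in 5 Dnmt3l libraries and 104 CPM in DF1, against 87.3 to 97.3 CPM in controls. That call was lost in 11 of the alternative fits.

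Cadherins and protocadherins, calcium-dependent adhesion molecules, gave 15 rises and 0 falls among 21 members with a median of 0.39, and 14 rises among 21 shorter genes with the same median. Cdh20 had 26.1, 33.3 and 37.5 CPM in Dnmt3l, against 20.1, 20.6 and 23.9 CPM in controls (0.62 ± 0.08). Pcdh15, named for its part in inner ear hair cells and a gene of oligodendrocyte precursors in cortex, rose by 0.64 ± 0.10, and Pcdh7 by 0.36 ± 0.06. The teneurins and the sushi-domain and LRP-type large receptors rose in 12 of 12 members with a median of 0.43. The 5 shorter genes of that list gave 5 rises with a median of 0.47. Sorcs3, a sorting receptor, had 61.9, 85 and 105 CPM in Dnmt3l, against 48.6, 52.5 and 56.5 CPM (0.69 ± 0.08). Csmd2, a relative of Csmd1, and Tenm4, a teneurin known for its part in myelination, rose by 0.74 and 0.55.

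Receptors for glutamate and GABA gave 16 rises and 0 falls among 22 members, with a median of 0.27. Their 16 shorter counterparts gave 12 rises and 0 falls with a median of 0.34. Gabbr2, a subunit of the metabotropic GABA-B receptor, had 659, 680 and 630 CPM in Dnmt3l males and 458, 546 and 565 CPM in Dnmt3l females, against 372 to 422 CPM in controls (0.57 ± 0.06, edgeR adjusted p = 0.000152). All 6 Dnmt3l libraries were higher, DF1 least. Grm3, a metabotropic glutamate receptor with strong expression in astrocytes, and Grid1, a delta-type glutamate receptor, both rose by 0.56. Axon guidance and secreted ligands gave 19 rises and 0 falls among 26 members with a median of 0.34. Their 16 shorter counterparts gave 13 rises and 0 falls with a median of 0.41. Ntrk2, the receptor for BDNF, which astrocytes express in truncated form, had 938, 1364 and 1471 CPM in Dnmt3l, against 847, 886 and 945 CPM, with DF1 alone inside the control range (0.54 ± 0.08). Alk and Nrg3, a neuregulin, rose by 0.75 and 0.41.

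Channels were divided. Among 18 calcium and sodium channel members 10 rose and 5 fell, and among 18 potassium channel members 8 rose and 2 fell. Their medians were 0.28 and 0.19. Among shorter genes, 9 of 10 on the first list rose and 0 fell, with a median of 0.42. On the second, 3 of 7 shorter genes rose and 0 fell, with a median of 0.17. Cacna1a, the pore of the P/Q-type calcium channel, had 445, 647 and 674 CPM in Dnmt3l, against 339, 357 and 385 CPM in controls (0.74 ± 0.08, edgeR adjusted p = 0.000162). Itpr2, which is also on this list, and Cacna1d, the pore of an L-type channel, rose by 0.78 and 0.50. Among the falls were the auxiliary calcium channel subunits Cacnb4 and Cacnb2, by 0.82 and 0.46, and Fgf12 and Fgf14, cytoplasmic partners of sodium channels, by 0.78 and 0.65. On the potassium channel list the pores Kcnma1 and Kcnh5 and the auxiliary Dpp10 were higher by 0.26, 0.39 and 0.31. The cytoplasmic partners Kcnip4 and Kcnip1 fell by 0.85 and 0.20, and the call of Kcnip1 was lost in 8 alternative fits. Kcnab1, another cytoplasmic subunit that was not on the list, fell by 0.82 without overlap of the groups. Kcnip4 had 21.1, 23.3 and 21.5 CPM in Dnmt3l males and 45.3, 21.5 and 18.3 CPM in Dnmt3l females, against 41.6 to 48.2 CPM in controls.

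Postsynaptic scaffolds and signalling genes were the list that fell most often, with 20 falls and 7 rises among 41 members and a median of −0.22. The 11 shorter genes of this list had 5 rises, 3 falls and a median of 0.14. Ppp3ca had 479, 545 and 494 CPM in Dnmt3l males and 918, 521 and 559 CPM in Dnmt3l females, against 950 to 1155 CPM in controls. Calcineurin, its product with a regulatory subunit, is the calcium-dependent phosphatase of synapses. All 6 libraries were lower, DF1 only just (−0.88 ± 0.12, edgeR adjusted p = 0.000273). The kinases Camk1d and Prkce and the lipid kinase Dgkb fell by 0.62, 0.53 and 0.52, each without overlap. Against them, Shank2, a scaffold of excitatory synapses, rose to 457, 573 and 624 CPM, against 327, 365 and 390 CPM (0.63 ± 0.08), and Rapgef4 and Dlg2 rose by 0.32 and 0.27.

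Transcription factors and RNA-binding proteins also leaned down, with 13 falls and 4 rises among 39 members. The median of this list was −0.01 and its sign turned with the setting, between −0.10 and 0.04. Its 22 shorter genes gave 0 rises and 6 falls with a median of −0.07. Rbfox1, a neuronal splicing factor, had 148, 153 and 134 CPM in Dnmt3l males and 260, 131 and 154 CPM in Dnmt3l females, against 245 to 312 CPM in controls (−0.81 ± 0.14, edgeR adjusted p = 0.000584). Foxp1, a transcription factor of cortical projection neurons, fell by 0.54 with no overlap, and Camta1 by 0.43. Tshz2, Hdac4 and Khdrbs2 rose by 0.39, 0.21 and 0.41.

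Presynaptic release genes gave 6 rises and 2 falls among 16 members, a share of rises like that of all members. The 10 shorter genes of this list gave 3 rises and 4 falls with a median of −0.25. Of the members, Syn3, Unc13b and Rims1 were higher by 0.50, 0.45 and 0.36 and Cadps2 and Ppfia2 lower by 0.41 and 0.20. The call of Ppfia2 was lost in 6 alternative fits and that of Cadps2 without the 3 controls with liver transcripts. Cytoskeletal genes and ankyrins gave 16 rises and 5 falls among 34, a median of 0.16. The 11 shorter genes of this list gave 3 rises and 3 falls with a median of 0.00. Dst, a giant cross-linker of cytoskeletal filaments, had 1162, 1479 and 1673 CPM in Dnmt3l, against 989, 1046 and 1118 CPM in controls (0.49 ± 0.06). Utrn, the relative of dystrophin, and Nav2 rose by 0.46 and 0.47, while Frmpd4, Macrod2 and Dnm3 fell. Macrod2 was counted on this list although it encodes a hydrolase of ADP-ribose marks rather than a cytoskeletal protein. Long genes known from glia and vessels had the highest median, 0.57, with 10 rises and 1 fall among 17, and their 23 shorter counterparts had 21 rises and a median of 0.71. Prex2 and Tnr, the matrix protein tenascin R, rose by 0.65 and 0.61. Of 37 neurodevelopmental risk genes among the members, 23 rose and 7 fell. Shank2 and Ank2 were among the rises and Rbfox1 and Foxp1 among the falls. Of the 18 shorter risk genes 5 rose and 5 fell, with a median of 0.06.

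The split of libraries was visible in most lists. In DF1 the list medians lay between −0.157 and 0.0933, the lowest for glial and vascular genes and the highest for presynaptic release. The other 5 Dnmt3l libraries had 0.0696 to 0.14 for presynaptic release and 0.0807 to 0.263 for potassium channels, so DF1 lay inside that range for presynaptic release, and its 0.0781 for potassium channels was next to it. The 358 members that rose had a median of 0.0439 in DF1, while the remaining 5 Dnmt3l libraries had 0.4 to 0.479. For the 171 that fell, DF1 had −0.0505 and the remaining 5 had −0.501 to −0.427. Both sets were called from these same libraries, so their distance from 0 in most Dnmt3l libraries follows from that choice. Without the 3 controls with liver transcripts the counts of rises shrank, to 21 of 49 adhesion molecules and 4 of 26 guidance genes, for example, and with DF1 left out as well they were 40 and 22. Of the 13 list medians, that of the transcription factors and RNA-binding proteins alone changed sign under any alternative fit.

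**Figure D5:**
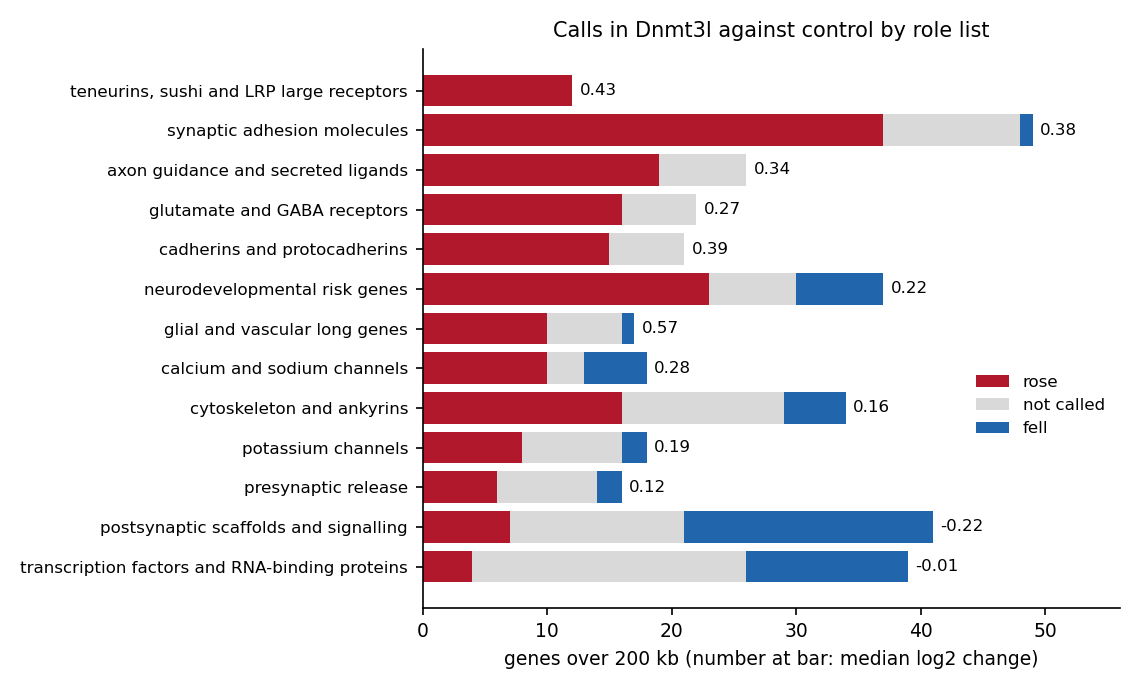
Number of members over 200 kb (horizontal axis) that rose, were not called or fell in Dnmt3l against control in each of 13 role lists, with the median log2 change beside the bar. All 12 teneurin, sushi and LRP genes rose, while 20 of 41 postsynaptic scaffold and signalling genes fell.

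Males and females were fitted separately within the same model. In Dnmt3l males 298 members rose and 133 fell against control males, where 20.4% and 22.7% of all genes did, and the members' median was 0.16. In Dnmt3l females 53 rose and 21 fell against control females, where 4.73% and 4.38% of all genes did, and the median was 0.10. The female counts hung on single libraries. Leaving out DF1 gave 345 rises and 172 falls, and leaving out any other female library gave between 0 and 2 calls in either direction. The shares of all genes in these female fits are not given here, so the counts are not particular to long genes. Averaged over sexes, leaving out DF1 also moved the shares of all genes, from 25.2% to 30.1% of rises and from 26.4% to 32.8% of falls. Rises called in both sexes numbered 46 and falls 20, with no share of all genes given here to set them against. Which direction was more frequent turned with the processing in both sexes. Library totals gave 177 rises and 209 falls in males, and limma on log2(FPKM + 0.1) gave 6 rises and 10 falls in females.

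The difference between the male and the female effect was called in 0 of 942 members by edgeR, as in 0% of all genes, with 97 members at an unadjusted p below 0.05 and 1 called by DESeq2. The smallest adjusted p was 0.679. The median of the male minus the female effect was 0.04 in members and −0.02 in all genes. Between control females and control males, 0 members were called by edgeR and 0 by DESeq2, with 10 at an unadjusted p below 0.05, and 0.0253% of all genes were called lower. The 39 X-linked members gave 12 rises and 10 falls averaged over sexes, where 25.2% and 26.4% of all genes did so, with a median of 0.06.

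Genes that act on the transcription of long genes, none of which is itself longer than 200 kb, fell more often than they rose. Of 46 listed factors 3 rose and 19 fell, where 25.2% and 26.4% of all genes did, with a median log2 change of −0.14. Tcea1 and Rtf1, factors of elongating polymerase, fell by 0.71 and 0.56, and Tbl1xr1, a corepressor subunit, by 0.59 (edgeR adjusted p = 0.000985, 0.00267 and 0.000273). Dnmt3a, the partner of Dnmt3l, rose by 0.26. The topoisomerases Top1 and Top2b, whose inhibition is known to lower long genes in neurons, had −0.05 ± 0.07 and 0.01 ± 0.06 and were not called.

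Circular RNAs, often made by back-splicing of exons, offered a second readout of the same loci. Members hosted 3600 of the 10673 circular RNAs listed, and 74.6% of members hosted at least 1, against 33.5% of genes of 20 to 200 kb and 3.14% of genes of 20 kb or less. Dgki, a diacylglycerol kinase, had 46 and Rims2, a release-site scaffold, 34. Of the 746 tested from members, in 347 hosts, 0 rose and 0 fell by limma, where 0.101% and 0.151% of all 1989 did, and 69 had an unadjusted p below 0.05. In simulated data this test recovered 6.15% of changes of 2 times, so the lack of calls does not show that these RNAs were unchanged. The median log2 change of the 746, on the log2(score + 5) scale, was −0.34, near the −0.36 of all circular RNAs. The host genes themselves had a median of 0.10. The total score of all circular RNAs was 101117 to 165032 in 5 Dnmt3l libraries and 210476 in DF1, against 155338 to 209635 in controls, and the part of these totals in the lower scores was not tested.

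The 5 member circular RNAs with the smallest p all had lower scores in Dnmt3l. That of Strbp, an RNA-binding protein gene whose RefSeq span is 134 kb, lay on chromosome 2 from 37580673 to 37647285. It scored 395, 508 and 513 in Dnmt3l males and 941, 322 and 294 in Dnmt3l females, against 714 to 1109 in controls. DF1 again gave the one Dnmt3l value inside the control range, and the log2 change of −0.94 ± 0.25 had a limma adjusted p of 0.0719. Those of Ror1 and Sipa1l1 were listed at 0 in all 6 Dnmt3l libraries and above 0 in all 6 controls, at 15 to 88 and 21 to 44. Both met the minimum of 6 libraries above 0 through the controls alone, so their separation follows in part from that filter. Neither passed the correction (limma adjusted p = 0.112 and 0.121). The circular RNAs of Dlg2 and Sntg1 were above 0 in 3 of 6 Dnmt3l libraries and 6 of 6 controls. That of Dlg2 was listed as of intron type, and the other named ones as of exon type. The host genes Ror1, Dlg2, Sipa1l1 and Sntg1 had log2 changes of 0.21 to 0.27. Member loci took 33.8% to 39.2% of the circular RNA score in Dnmt3l libraries and 34.6% to 37.4% in controls.

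Single transcripts of long genes were less uniform than their sums. Among member transcripts of 4 kb or more, 170 of 1471 rose (11.6%) and 162 fell (11%). At that length 8.38% rose and 16.1% fell in genes of 20 to 200 kb, and 10.3% and 16.2% in genes of 20 kb or less. Among member transcripts of 1 to 4 kb, 208 of 2311 rose (9%) and 136 fell (5.88%). At this length the shares were 4.93% and 10.9% in genes of 20 to 200 kb, and 5.43% and 15.3% in genes of 20 kb or less. Of all 54587 transcripts, shorter ones included, 4.78% rose and 9.19% fell. Member transcripts had medians of 0.05 at 4 kb or more and 0.21 at 1 to 4 kb. A gene with one transcript called up and another called down occurred in 61 of 922 members, 6.62%, against 2.44% of genes of 20 to 200 kb and 1.29% of genes of 20 kb or less. Members had a median of 7 annotated transcripts and genes of 20 kb or less a median of 3, so a member had more transcripts that could be called, and the shares were not matched for this. Cntnap2 was one. Its 9827-nt transcript had 18.5, 21.6 and 22.3 FPKM in Dnmt3l, against 16.1, 17.1 and 19.5 FPKM (0.25 ± 0.07, edgeR adjusted p = 0.0403). A 6279-nt transcript had 0.25, 0.485 and 0.54 FPKM, against 0.55, 0.795 and 1.16 FPKM (−0.97 ± 0.22, edgeR adjusted p = 0.0169). In Fgf12 a 2527-nt transcript rose by 0.77 while 2 others of 831 and 2689 nt fell by 1.27 and 1.48. How reads were shared among overlapping transcripts was set by the authors' estimation.

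Assembled long non-coding transcripts assigned to members, 375 from 199 genes, gave 1 rise and 1 fall, where 0.298% and 0.196% of all 12752 did. In simulated data this test recovered 4.84% of changes of 2 times, so few calls do not show that the others were unchanged. The long non-coding transcript of Wwox had 478, 588 and 704 CPM of the long non-coding total in Dnmt3l, against 388, 443 and 476 CPM in controls (0.42 ± 0.07, edgeR adjusted p = 0.0374). Wwox mRNA had −0.09 ± 0.10. That of Arhgap15 fell to 0, 10 and 48.8 CPM, against 12.5, 66.5 and 120 CPM, with overlapping groups, and its mRNA fell by 0.85 ± 0.21.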

How the data were processed

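Tissue RNA from 12 samples was profiled as mRNA, long non-coding RNA and circular RNA. The authors deposited expected counts and FPKM per transcript and a score per circular RNA, per the file headers. Transcript counts were not whole, so they were summed per gene and rounded, and FPKM was summed per gene. Per the submitters' processing notes, the build was GRCm38 and the tools included HISAT2 2.0.1 and HTSeq 0.6.1, with no order or role stated. Transcripts without a gene ID, 0.533% to 0.601% of counts, stayed out of library sizes and tests.

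The main test was edgeR 4.0.16's quasi-likelihood test in R 4.3.3 with TMM scaling, 4 group means and 8 residual degrees of freedom. Levels are TMM-scaled CPM computed here from the deposited counts. Errors of log2 changes are standard errors from that test. Circular RNAs above 0 in at least 6 libraries were tested with limma 3.58.1 on log2(score + 5), since the deposited scores are not stated to be raw counts. Long non-coding transcripts needed 0.1 FPKM and single transcripts 0.5 FPKM in at least 3 libraries. Adjusted p-values are Benjamini-Hochberg over all features of a table. Alternatives covered DESeq2 1.42.0, other scalings, limma on FPKM, filters, span thresholds and left-out libraries.

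The tests were checked on simulated data. Changes of 2 times were recovered in 82.1% of cases for genes, 17.7% for transcripts, 4.84% for long non-coding transcripts and 6.15% for circular RNAs. At 4 times these shares were 95.5%, 41.8%, 28.2% and 71.2%. Named genes were the 10 longest, the 8 highest by FPKM, the 10 largest called rises and 10 largest called falls at 5 CPM or more, up to 3 called rises and 3 called falls per list by p, the 5 circular RNAs with the smallest p, and 3 genes on each side of 200 kb. Members and lists were chosen with earlier results of these data known. The table gives no span per transcript, so transcripts were grouped by length. The small RNA table was not used here. A few named genes are not reported here.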

Additional observations from a re-analysis of the deposited data

Results flagged for a closer look

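DF1 stood apart from the other 5 Dnmt3l libraries in the 3 summaries of long genes that were tested per genotype for a single distant sample by Dixon's test. Its median log2 level of members relative to controls was 0.00848, with a gap of 0.828 of the range of the 6 Dnmt3l libraries. Its difference between long and short genes was 0.00869, with a gap of 0.74 of the range. The same difference within strata of level was −0.0101, with a gap of 0.672 of the range. All 3 gaps exceed the 95% critical value for 6 samples, which chance alone passes in about 1 in 20 groups. The 3 summaries share their genes and are not independent. Dnmt3l itself was highest in DF1, at 45.8 CPM, against 20.7 to 27 CPM in the other 5 Dnmt3l libraries. The cause of its distance from the other 5 was not tested.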

How the results depend on the processing

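Averaged over sexes, the median of members was 0.143 and moved to 0.191 with upper quartile scaling, 0.051 with library totals, 0.090 with limma on log2(FPKM + 0.1) and 0.075 on log2(FPKM + 1). The limma fits gave 232 and 233 rises. In the first 24.6% of members rose and 16.6% fell, where 14.8% and 27.1% of all genes did. In the second the shares were 24.7% and 16.6%, where 14.9% and 27% of all genes did. Spans over 100 kb gave 782 rises and 451 falls, and spans over 300 kb 218 and 90, with the numbers of genes not given here. Without the 3 controls with liver transcripts there were 136 rises and 93 falls, where 12.2% and 15.5% of all genes did so. The difference between long and short genes was then 0.101, against 0.158. For the fits in males and in females below, the shares of all genes are not given. In males, library totals gave 177 rises, 209 falls and a median of 0.020, upper quartile scaling a median of 0.212, and the limma fits 144 and 147 rises with medians of 0.102 and 0.082, the first with a difference between long and short genes of 0.250. Without the 3 controls with liver transcripts males had 129 rises and 69 falls, and without DF1 as well 316 rises. In females, DESeq2 gave 127 rises and 68 falls, upper quartile scaling 81 rises and a median of 0.145, library totals 33 falls and a median of 0.056, and each limma fit 6 rises and 10 falls. Without the 3 controls with liver transcripts females had 0 rises, 0 falls and a difference between long and short genes of 0.063, and without DF1 as well 213 rises and 125 falls. Leaving out single libraries gave 286 to 447 rises and 142 to 234 falls on average, where 21% to 30.1% of all genes rose and 23.5% to 32.8% fell. In males it gave 191 to 250 rises (191 without CM2 and 192 without CM3), and in females 0 to 345 rises and 0 to 172 falls. For circular RNAs of members it gave 0 to 1 rises and 0 to 12 falls, with 12 falls without DF1, and requiring a score in all 12 libraries gave 2 falls. The cause of these differences was not tested. Galnt2l, not called, reversed to −0.01 with library totals, −0.09 and −0.08 with limma, −0.09 without DM1 and −0.14 without DF2, and reached 0.20 without DM2. With a replicate block there were 347 rises and 166 falls on average, where 24.1% and 25.9% of all genes did so. The block gave 280 and 129 in males and 35 and 24 in females. Correlations of same-numbered samples, on deviations from means of 3 libraries, ran from −0.33 to 0.0878, and those of other pairs from −0.175 to 0.235. They cannot tell whether samples of one number share an origin. Of 84 called named genes, 68 were called in every alternative fit. The span of the longest transcript was planned as an alternative and not run, since the table gives no span per transcript.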

Other observations

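Cntn4, a contactin of the synaptic adhesion family, had the smallest p of all members for the difference between the male and the female effect, and was singled out after its values were seen. It had 86.8, 84.9 and 86.0 CPM in Dnmt3l males, against 60.2, 58.6 and 58.6 CPM in control males, and 64.1, 67.2 and 63.4 CPM in Dnmt3l females, against 62.0, 61.7 and 71.8 CPM in control females. The male effect was 0.54 ± 0.08 on the log2 scale and the female effect −0.01 ± 0.08 (edgeR). Their difference of 0.54 ± 0.12 had an edgeR adjusted p of 0.679 and does not pass the correction.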
